A study of Mus musculus with 12 samples.

Results

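The genes described here are 39 genes of fatty acid oxidation in mitochondria and peroxisomes, chosen as a pathway list by symbol and matched to Ensembl mouse gene identifiers among the 28948 genes listed. They comprise 5 genes of the carnitine shuttle, 12 of mitochondrial β-oxidation, 3 of electron transfer to ubiquinone, the mitochondrial anion carrier Ucp2, 2 peroxisomal fatty acid importers, 5 enzymes of peroxisomal oxidation and 11 peroxins. Of these, 37 reached the minimum for testing, which was 1 RPKM (reads normalised to exon length and to library size) in at least 3 libraries. Cpt1b and Ehhadh did not.

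RNA was measured in 12 libraries of 3T3-L1 adipocytes, a mouse line of Swiss strain origin that is differentiated into fat cells in culture. Cells with a construct labelled for constituent overexpression of FOXP1 (n = 3) were set against cells with an empty vector (n = 3), and cells with an shRNA against Foxp1 (n = 3) against cells with a scrambled shRNA (n = 3). All 4 groups carried a construct and had the same differentiation cocktail of troglitazone at 10 µM, insulin at 5 µg/ml, dexamethasone at 1 µM and isobutylmethylxanthine at 0.5 mM, with insulin as the only additive from day 4 and no additive from day 6. The time of harvest, the promoter and species of the overexpressed FOXP1, and whether each line was a clone or a pool are not given in the sources used here. Nor do the labels say whether replicates were separate cultures, so p-values measure only the spread between these libraries.

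Fatty acids enter mitochondria as carnitine esters and are then shortened in repeated rounds of dehydrogenation, hydration, a further dehydrogenation and thiolysis, with electrons passed to ubiquinone by electron transfer flavoprotein. Peroxisomes shorten very long and branched chains with a separate set of enzymes, which cytosolic and membrane proteins called peroxins import into the organelle. Fat cells are better known for storing than for burning fatty acids, but both organelles become more abundant as preadipocytes turn into adipocytes. Foxp1 is a forkhead transcription factor.

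The libraries held 35196318 to 38389454 assigned reads, recovered from the values, and in a gene with 1 kb of exon each read counted for 0.0260 to 0.0284 RPKM. Foxp1 averaged 6.56 ± 0.71 RPKM in overexpressing cells and 1.80 ± 0.035 RPKM in empty vector cells, and 1.11 ± 0.034 RPKM in knockdown cells and 2.18 ± 0.062 RPKM in scrambled hairpin cells (SD, n = 3 each), so the levels follow the labels. Overexpression replicate 3 stood apart. Compared with replicates 1 and 2, its mean squared difference was 30.3 and 31.7 times the sampling variance, against 6.08 between those replicates and at most 9.89 in the other groups, and mitochondrially encoded genes took 13.1% of its reads, against 9.99% and 9.65%. Of 12 fat cell markers, 11 were tested, and their call counts were 1 higher and 9 lower in overexpression, and 5 higher and 4 lower in knockdown. Over all genes tested, 31.0% were higher and 20.3% lower in overexpression, and 18.7% higher and 31.0% lower in knockdown. The summed level of the 12 markers was 3849 to 4144 RPKM in overexpressing cells and 9448 to 9664 RPKM in empty vector cells, and 9526 to 10210 RPKM in knockdown cells and 6921 to 7162 RPKM in scrambled hairpin cells. Leptin was the marker below 0.1 RPKM in every knockdown and scrambled hairpin library. The 8 preadipocyte markers summed to 112 to 119 RPKM in overexpressing cells and 101 to 113 RPKM in empty vector cells, and to 123 to 138 RPKM in knockdown cells and 141 to 160 RPKM in scrambled hairpin cells. These sums hide opposite changes. Of the 6 preadipocyte markers tested, 3 were higher (Sox9, Thy1 and Dlk1) and 2 lower (Ly6a and Pdgfra) in overexpression. In knockdown 0 were higher and 3 lower. Among other cell types, macrophage markers summed to at most 5.96 RPKM, endothelial markers to at most 0.583 RPKM and hepatocyte markers to at most 0.728 RPKM in any library. The muscle marker sum, most of it Acta1 in the overexpression experiment and Des in the knockdown experiment, was 44.6 to 50.7 RPKM in overexpressing cells and 24.3 to 25.1 RPKM in empty vector cells, and 9.53 to 10.5 RPKM in knockdown cells and 10.5 to 11.95 RPKM in scrambled hairpin cells.

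In empty vector cells, the levels per length ran over a wide range. Acadm had the highest mean level of the list, 210.4 ± 5.6 RPKM, next to Crat at 209.6 ± 2.85 RPKM, and these 2 did not differ beyond their spread. Acadvl, Etfa, Acadl, Cpt2, Acaa2 and Acads followed between 186 and 116 RPKM. The peroxins ran from 2.14 RPKM for Pex7, the import receptor for a small class of peroxisomal enzymes, to 73.1 RPKM for Pex19, the carrier of newly made membrane proteins. Cpt1a, the rate-controlling enzyme of entry into mitochondria and the liver form of carnitine palmitoyltransferase, stood at only 5.28 ± 0.214 RPKM, and its muscle counterpart Cpt1b at 0.0265 ± 0.0039 RPKM. Cpt1b had 18 reads over the overexpression libraries and 10 over the empty vector libraries, and 22 over the knockdown libraries and 7 over the scrambled hairpin libraries, so no difference was detectable at this depth. Without the minimum level its limma adjusted p was 0.273 for overexpression and 0.0547 for knockdown. Cpt1b exons overlap those of Gm44502 over 81.4% of their length and the strand setting of the counting is not given, so its level is uncertain.

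Raised Foxp1 went with higher RNA of much of mitochondrial fatty acid oxidation and lower RNA of several peroxisomal genes. Of the 37 genes tested, 13 rose (35.1%) and 11 fell (29.7%) in overexpressing cells, at limma adjusted p under 0.05 over all genes tested. Of all 11245 genes tested, 31.0% rose and 20.3% fell. With the deposited scaling the whole list thus stood near the background of rises and above that of falls. The background depends on the scaling. TPM rescaling (each library scaled to the same sum of values) gave 12 rises and 14 falls in the list. Of all genes tested, 21.7% then rose and 22.9% fell. With median-ratio size factors the list had 13 rises and 13 falls, against 26.2% and 24.8% of all genes. After quantile normalization it had 14 and 12, against 25.9% and 24.8%. Under these alternative scalings the list stood above the background of both rises and falls. Rises made up 60.4% of all genes called as deposited, and 48.6%, 51.4% and 51.1% under these scalings in turn. By organelle, the counts were as follows. Among the 19 mitochondrial genes other than Ucp2, 11 rose (57.9%) and 2 fell (10.5%), with a median log2 fold change of 0.23 against 0.044 over all genes. None of the 4 tested enzymes of peroxisomal oxidation rose and 3 fell (median -0.33), and of 11 peroxins 1 rose and 4 fell (median -0.059). Without overexpression replicate 3, the list had 19 rises and 9 falls, with 4 of 4 tested carnitine shuttle genes and 9 of 12 β-oxidation genes higher. Over all genes, 35.7% rose and 19.6% fell without that library. In whole-culture RNA, fewer cells of a type and less RNA per cell cannot be told apart, and the part of the lower fat cell markers in these changes was not tested.

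**Figure D1:**
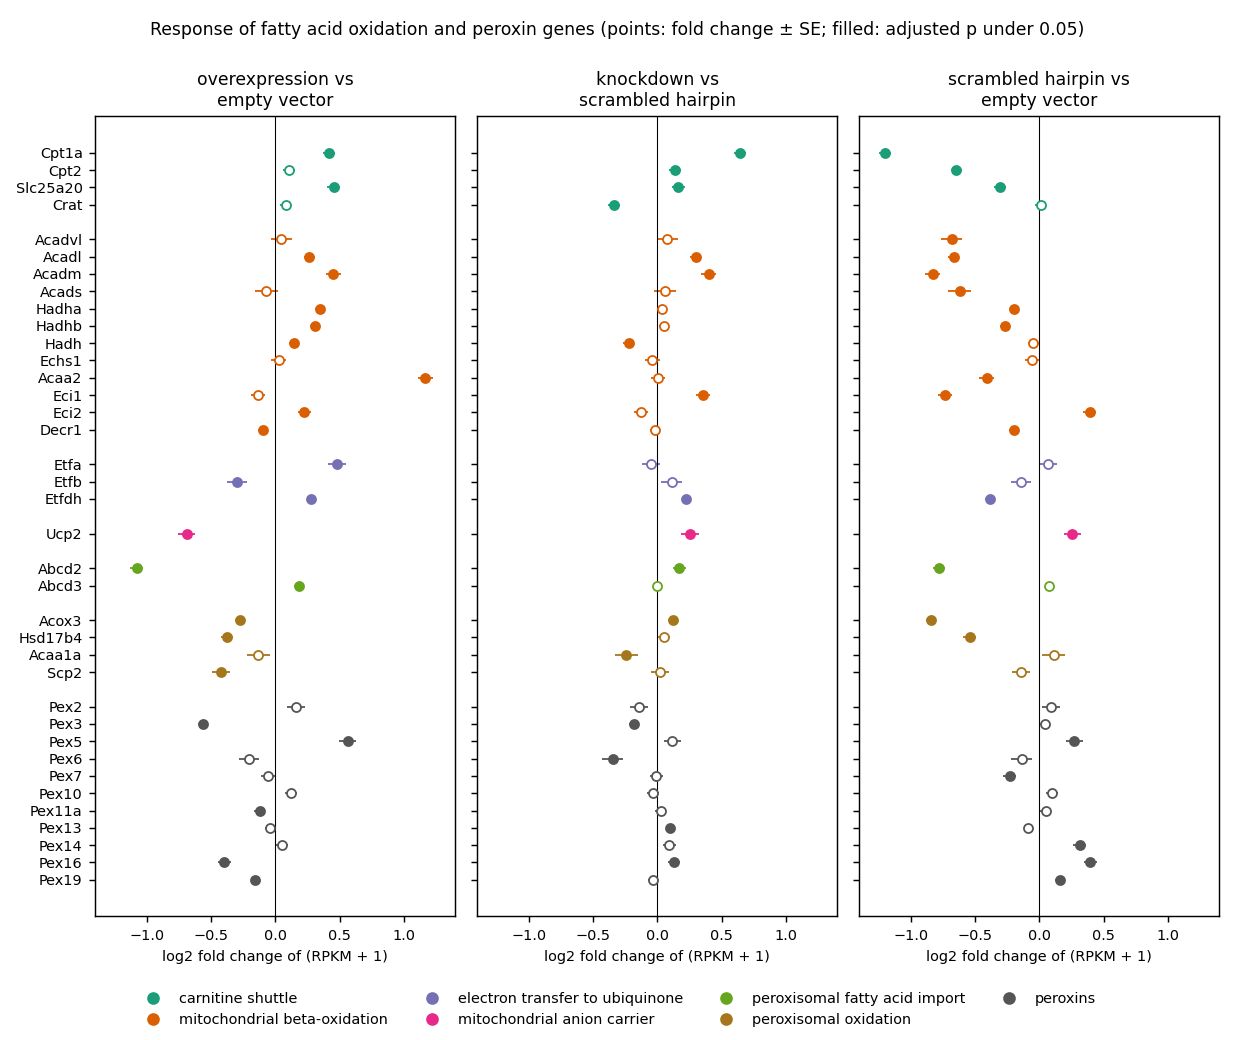
Log2 fold change of RPKM + 1 for the 37 tested genes, grouped by role, for overexpression (over empty vector), knockdown (over scrambled hairpin) and the 2 controls (scrambled hairpin over empty vector). Points are estimates, bars are standard errors, and filled points passed adjusted p under 0.05; the orange β-oxidation genes lie mostly right of 0 in overexpression, where Acaa2 is farthest right at 1.17, and mostly left of 0 in the comparison of the controls.

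With lowered Foxp1, 17 members changed, most of them upward. In knockdown cells 12 genes rose (32.4%) and 5 fell (13.5%), where 18.7% of all genes tested rose and 31.0% fell. The median log2 fold change of the list was 0.049, against -0.042 over all genes. The rises included 3 of 4 carnitine shuttle genes and 3 of 12 β-oxidation genes. After TPM rescaling 7 members rose and 5 fell, and leaving out scrambled hairpin replicate 1 gave 7 rises and 4 falls. Of all genes 14.4% rose and 33.0% fell after TPM rescaling, and 15.3% rose and 27.0% fell without scrambled hairpin replicate 1, so the members' rises were then nearer to the background. With median-ratio size factors 16 members rose and 4 fell, where 24.7% of all genes tested rose and 24.8% fell. The members' rises were thus above the background there too. Rises made up 49.9% of all genes called with these factors, against 37.6% without them. The 5 falls were those of Crat, Hadh, Acaa1a, Pex3 and Pex6.

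The 2 responses were not mirror images. Of 24 genes that changed with overexpression, 5 also changed in the opposite direction with knockdown, 6 changed in the same direction and 13 did not pass the test with knockdown. The shares of all genes in these classes were not computed, so whether this mix is particular to the list is not known. A test of the difference between the responses, which share no libraries, passed for 11 genes on the higher side (overexpression response above knockdown response) and 12 on the lower side. Over all genes, 34.6% passed on the higher side and 20.3% on the lower. With median-ratio size factors 9 genes of the list were on the higher side and 15 on the lower. Of all genes tested, 26.8% were then on the higher side and 27.1% on the lower. The higher side made up 49.6% of all genes called (50.7% after quantile normalization), against 63.0% as first computed. The opposite changes were those of Hadh, higher with overexpression and lower with knockdown, and of Ucp2, Abcd2, Acox3 and Pex16, lower with overexpression and higher with knockdown. The same-direction changes were the rises of Cpt1a, Slc25a20, Acadl, Acadm and Etfdh and the fall of Pex3.

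**Figure D2:**
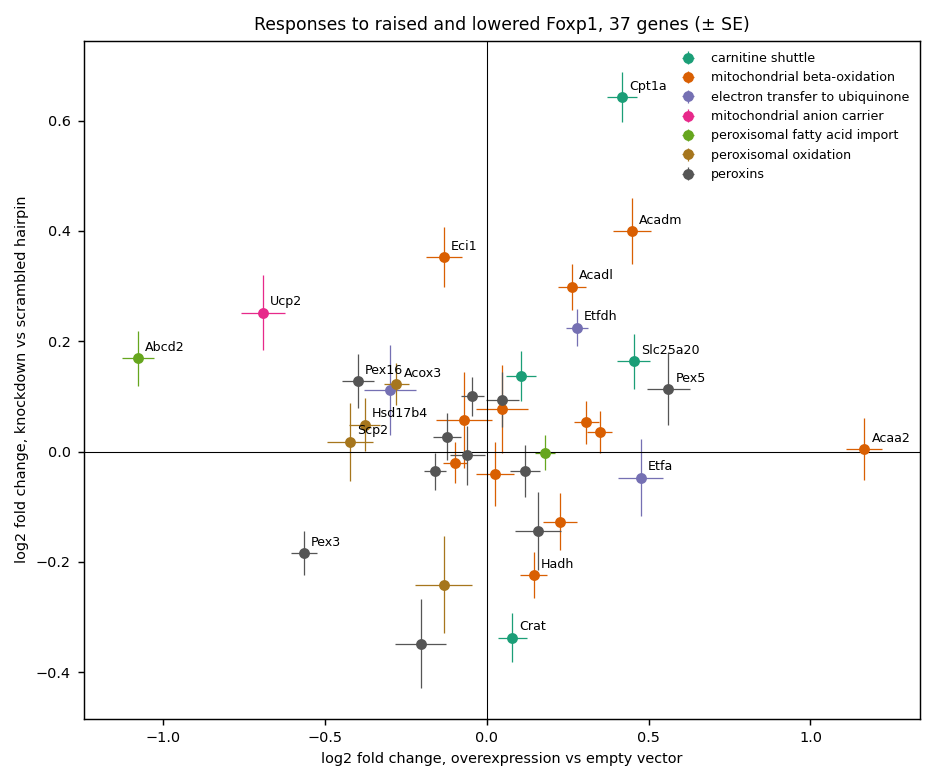
Log2 fold change in knockdown against scrambled hairpin (vertical) plotted against that in overexpression against empty vector (horizontal) for the 37 tested genes, coloured by role, with bars of 1 standard error. Cpt1a and Acadm lie high in both, Acaa2 lies far right at a knockdown value of 0.005, and Ucp2 and Abcd2 lie upper left.

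The carnitine shuttle had the widest range of knockdown responses, from Cpt1a upward to Crat downward. Cpt1a (ENSMUSG00000024900, chr19:3322334-3385733, + strand, GRCm38) had 7.299, 7.88 and 7.004 RPKM in the overexpression libraries, against 5.498, 5.28 and 5.07 RPKM in the empty vector libraries. The groups did not overlap (log2 fold change 0.42 ± 0.046, limma adjusted p = 9.17e-06). It had 3.297, 3.18 and 3.302 RPKM in the knockdown libraries, against 1.69, 1.82 and 1.67 RPKM in the scrambled hairpin libraries. Here too every knockdown library was above every scrambled hairpin library (log2 fold change 0.64 ± 0.046, limma adjusted p = 7.16e-07), but all of them lay below the empty vector libraries. The rise was larger on the log2 scale with knockdown than with overexpression (difference -0.23 ± 0.065, limma adjusted p = 0.0108).

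Slc25a20, the carrier that swaps acylcarnitine for carnitine across the inner membrane, had 12.4, 12.4 and 10.8 RPKM in the overexpression libraries, against 8.45, 8.63 and 8.099 RPKM in the empty vector libraries. Overexpression replicate 3 was the lowest of its group and still above every empty vector library (log2 fold change 0.45 ± 0.05, limma adjusted p = 8.69e-06). It had 7.602, 7.38 and 7.56 RPKM in the knockdown libraries, against 6.81, 6.44 and 6.54 RPKM in the scrambled hairpin libraries. That rise was smaller (log2 fold change 0.16 ± 0.05, limma adjusted p = 0.0154, with a difference of responses of 0.29 ± 0.07 at adjusted p = 0.00396) and ended under TPM rescaling, where the adjusted p was 0.0834, and without scrambled hairpin replicate 2 (adjusted p = 0.0552). Cpt2, which returns the acyl group to CoA inside the mitochondrion, averaged 87.0 ± 2.23 RPKM in knockdown cells and 79.1 ± 2.49 RPKM in scrambled hairpin cells (log2 fold change 0.14 ± 0.046, limma adjusted p = 0.0262), a rise that also ended under TPM rescaling (adjusted p = 0.188) and without scrambled hairpin replicate 1 or 3 or knockdown replicate 3 (adjusted p = 0.055 to 0.0975). In overexpression its log2 fold change was 0.11 (adjusted p = 0.0729), or 0.16 without replicate 3 (adjusted p = 0.00408).

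Crat, the carnitine acetyltransferase that buffers short acyl groups, went another way. It had 161, 170.4 and 169 RPKM in the knockdown libraries, against 212, 218 and 203 RPKM in the scrambled hairpin libraries. The knockdown libraries were all lower (log2 fold change -0.34 ± 0.045, limma adjusted p = 7.19e-05). It had 224.5, 231.5 and 209 RPKM in the overexpression libraries, against 208, 213 and 208 RPKM in the empty vector libraries, and these groups overlapped (log2 fold change 0.079 ± 0.045, limma adjusted p = 0.164). Without overexpression replicate 3 Crat passed there too, at a log2 fold change of 0.12 (adjusted p = 0.021). The difference between its responses passed the test (0.42 ± 0.064, limma adjusted p = 0.000145).

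The RefSeq table of promoter windows (GRCm38.p6, 250 bases before to 50 after a start) held 35 windows for 31 of the 39 genes. The Cpt1a and Acadm windows, of the members with the largest rises in both experiments that have AGGTCA on either strand, are shown with that hexamer, a building block of nuclear receptor sites such as those of PPARs, in capitals. It reads TGACCT in both, being on the minus strand of the window. Acadm is at chr3:153944594-153944893 (- strand) and Cpt1a at chr19:3323051-3323350 (+ strand).
Acadm: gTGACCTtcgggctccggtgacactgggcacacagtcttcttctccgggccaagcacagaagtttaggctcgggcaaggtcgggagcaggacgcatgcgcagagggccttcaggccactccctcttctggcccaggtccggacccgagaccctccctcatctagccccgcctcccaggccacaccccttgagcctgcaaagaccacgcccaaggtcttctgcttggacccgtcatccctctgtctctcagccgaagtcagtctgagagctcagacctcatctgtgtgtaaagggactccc
Cpt1a: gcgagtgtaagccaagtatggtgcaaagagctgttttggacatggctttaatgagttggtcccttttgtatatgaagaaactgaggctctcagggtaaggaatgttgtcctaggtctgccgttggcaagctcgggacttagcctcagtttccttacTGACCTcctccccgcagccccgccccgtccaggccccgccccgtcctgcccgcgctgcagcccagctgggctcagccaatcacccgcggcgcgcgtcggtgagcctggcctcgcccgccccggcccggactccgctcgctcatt
The hexamer began 249 bases before the Acadm start and 94 bases before the Cpt1a start. AGGTCA was in 5 of the 35 windows, those of Acadm, Acadvl, Cpt1a, Echs1 and Scp2, and in 16.3% of all 32851 windows, so it was about as frequent as elsewhere. The forkhead sequence GTAAACA was in none of the 35 windows and in 3.65% of all windows, and AGGTCANAGGTCA, a repeat that includes AGGTCA, was in none of the 35 and in 0.0396% of all. Both strands were searched. The matches describe letters and are not evidence of binding.

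Among the acyl-CoA dehydrogenases, which start each round of β-oxidation, the enzymes for long and medium chains rose in both experiments. Acadm (ENSMUSG00000062908, chr3:153922357-153944632, - strand), the medium-chain enzyme, had 307, 301 and 257.5 RPKM in the overexpression libraries, against 207.5, 217 and 207 RPKM in the empty vector libraries. Overexpression replicate 3 was lowest of its group, and the groups did not overlap (log2 fold change 0.45 ± 0.059, limma adjusted p = 4.37e-05). It had 155, 151 and 161 RPKM in the knockdown libraries, against 120.2, 119 and 115 RPKM in the scrambled hairpin libraries. All knockdown libraries were higher (log2 fold change 0.40 ± 0.059, limma adjusted p = 0.000155). Its responses differed by 0.049 ± 0.083 on the log2 scale (limma adjusted p = 0.637).

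Acadl, the long-chain enzyme, had 179.8, 174 and 159.9 RPKM in the overexpression libraries, against 143, 144.5 and 139 RPKM in the empty vector libraries. It had 109.5, 109.7 and 110.4 RPKM in the knockdown libraries, against 90.5, 87.6 and 89.3 RPKM in the scrambled hairpin libraries. In both experiments the higher group was fully above its control (log2 fold change 0.26 ± 0.042, limma adjusted p = 0.000213, and log2 fold change 0.30 ± 0.042, limma adjusted p = 0.000109 in knockdown). Acadvl and Acads, for very long and short chains, did not pass the test in either experiment. Acadvl averaged 193 ± 27.2 RPKM in overexpressing cells and 186 ± 6.19 RPKM in empty vector cells, with 162 RPKM in overexpression replicate 3. Without that library it passed, at a log2 fold change of 0.17 (adjusted p = 0.00518). Its exons overlap those of Dvl2 over 42.9% of their length and the strand setting of the counting is not given, so its level is uncertain.

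The thiolase Acaa2 (ENSMUSG00000036880), which closes the mitochondrial cycle by splitting off acetyl-CoA, had the largest rise of the list with overexpression. It had 286, 280.5 and 241 RPKM in the overexpression libraries, against 119.7, 120 and 117.5 RPKM in the empty vector libraries. The lowest overexpression library, replicate 3, was far above the highest empty vector library (log2 fold change 1.17 ± 0.056, limma adjusted p = 4.6e-09), a ratio of mean levels of 2.26. It had 88.2, 87.7 and 93.3 RPKM in the knockdown libraries, against 88.8, 90.8 and 88.6 RPKM in the scrambled hairpin libraries. These groups overlapped (log2 fold change 0.005 ± 0.056, limma adjusted p = 0.949), and the difference between the responses was 1.16 ± 0.079 (limma adjusted p = 1.41e-07). Without overexpression replicate 3 the log2 fold change was 1.24.

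Hadha and Hadhb encode the α and β subunits of the trifunctional protein, which carries out the last 3 steps on long chains. Hadha had 93.9, 99.04 and 89.8 RPKM in the overexpression libraries, against 73.7, 74.5 and 73.04 RPKM in the empty vector libraries. Hadhb had 74.1, 70.5 and 67.5 RPKM in the overexpression libraries, against 57.8, 56.4 and 56.4 RPKM in the empty vector libraries. Both subunits rose without overlap and by like amounts (Hadha: log2 fold change 0.35 ± 0.038, limma adjusted p = 9.28e-06; Hadhb: log2 fold change 0.31 ± 0.039, limma adjusted p = 3.55e-05). In knockdown, Hadha had 64.5, 66.2 and 66.95 RPKM in the knockdown libraries, against 64.7, 65.2 and 62.9 RPKM in the scrambled hairpin libraries. Hadhb had 49.7, 49.99 and 46.8 RPKM in the knockdown libraries, against 46.8, 47.1 and 47.04 RPKM in the scrambled hairpin libraries. Neither passed the test in knockdown (log2 fold changes of 0.035 and 0.053), though both did under median-ratio scaling (0.087, adjusted p = 0.0389 for Hadha, and 0.105, adjusted p = 0.0269 for Hadhb). For both the responses differed (Hadha 0.31 ± 0.054, limma adjusted p = 0.000383; Hadhb 0.26 ± 0.056, adjusted p = 0.00207).

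The 2 genes run in opposite directions from neighbouring starts on chromosome 5, 273 bases apart at 30154980 for Hadha and 30155253 for Hadhb in the RefSeq table. Their promoter windows therefore share 228 bases. The Hadhb window (chr5:30155003-30155302, + strand, GRCm38.p6) is shown with the bases shared by the 2 genes in capitals. The part of these bases in the rises of the 2 subunits was not tested.
Hadhb: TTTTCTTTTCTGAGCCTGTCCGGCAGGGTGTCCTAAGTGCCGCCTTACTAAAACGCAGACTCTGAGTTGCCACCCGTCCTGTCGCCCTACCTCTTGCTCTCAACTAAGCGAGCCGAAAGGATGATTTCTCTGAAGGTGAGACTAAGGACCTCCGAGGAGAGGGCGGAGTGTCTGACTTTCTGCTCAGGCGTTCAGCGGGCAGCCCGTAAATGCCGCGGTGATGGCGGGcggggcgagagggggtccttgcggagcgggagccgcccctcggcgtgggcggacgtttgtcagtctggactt

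Hadh, the hydroxyacyl-CoA dehydrogenase for shorter chains, changed in opposite directions. It had 70.4, 66.6 and 62.6 RPKM in the overexpression libraries, against 58.9, 60.6 and 60.5 RPKM in the empty vector libraries. The rise was small (log2 fold change 0.14 ± 0.042, limma adjusted p = 0.0126) and ended under TPM rescaling (adjusted p = 0.161) and without overexpression replicate 1 (adjusted p = 0.051). It had 49.96, 48.1 and 50.5 RPKM in the knockdown libraries, against 57.03, 57.9 and 59.2 RPKM in the scrambled hairpin libraries. The knockdown libraries were all lower (log2 fold change -0.22 ± 0.042, limma adjusted p = 0.000892), and the responses differed by 0.37 ± 0.06 (limma adjusted p = 0.000225).

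The auxiliary enzymes for unsaturated chains did not move as a block. Eci1, an enoyl-CoA isomerase, had 47.2, 46.1 and 50.3 RPKM in the knockdown libraries, against 36.8, 36.9 and 38.02 RPKM in the scrambled hairpin libraries. It rose in knockdown without overlap (log2 fold change 0.35 ± 0.055, limma adjusted p = 0.000215). It had 61.7, 57.3 and 52.6 RPKM in the overexpression libraries, against 62.4, 65.03 and 60.6 RPKM in the empty vector libraries, and these groups overlapped (log2 fold change -0.13 ± 0.055, limma adjusted p = 0.0606). Under median-ratio scaling the overexpression value was -0.17 (adjusted p = 0.0074), and without overexpression replicate 1 it was -0.19 (adjusted p = 0.0101). Its paralog Eci2 averaged 35.6 ± 2.80 RPKM in overexpressing cells and 30.3 ± 1.28 RPKM in empty vector cells (log2 fold change 0.23 ± 0.052, limma adjusted p = 0.00302), while in knockdown its log2 fold change was -0.13 (adjusted p = 0.0601), which passed with only the libraries compared (adjusted p = 0.0133) and with voom (0.0454). Decr1, the dienoyl-CoA reductase, averaged 67.6 ± 2.25 RPKM in overexpressing cells and 72.4 ± 1.93 RPKM in empty vector cells (log2 fold change -0.098 ± 0.037, limma adjusted p = 0.0425), a fall that ended without any one empty vector library or overexpression replicate 2 or 3 (adjusted p = 0.0563 to 0.161). The Decr1 call also ended after quantile normalization (log2 fold change -0.054, adjusted p = 0.211) and with only the libraries compared (adjusted p = 0.101). Echs1, the short-chain enoyl-CoA hydratase, had log2 fold changes of 0.026 and -0.041 and passed in neither, though it passed in overexpression without replicate 3 (0.10, adjusted p = 0.0464).

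**Figure D3:**
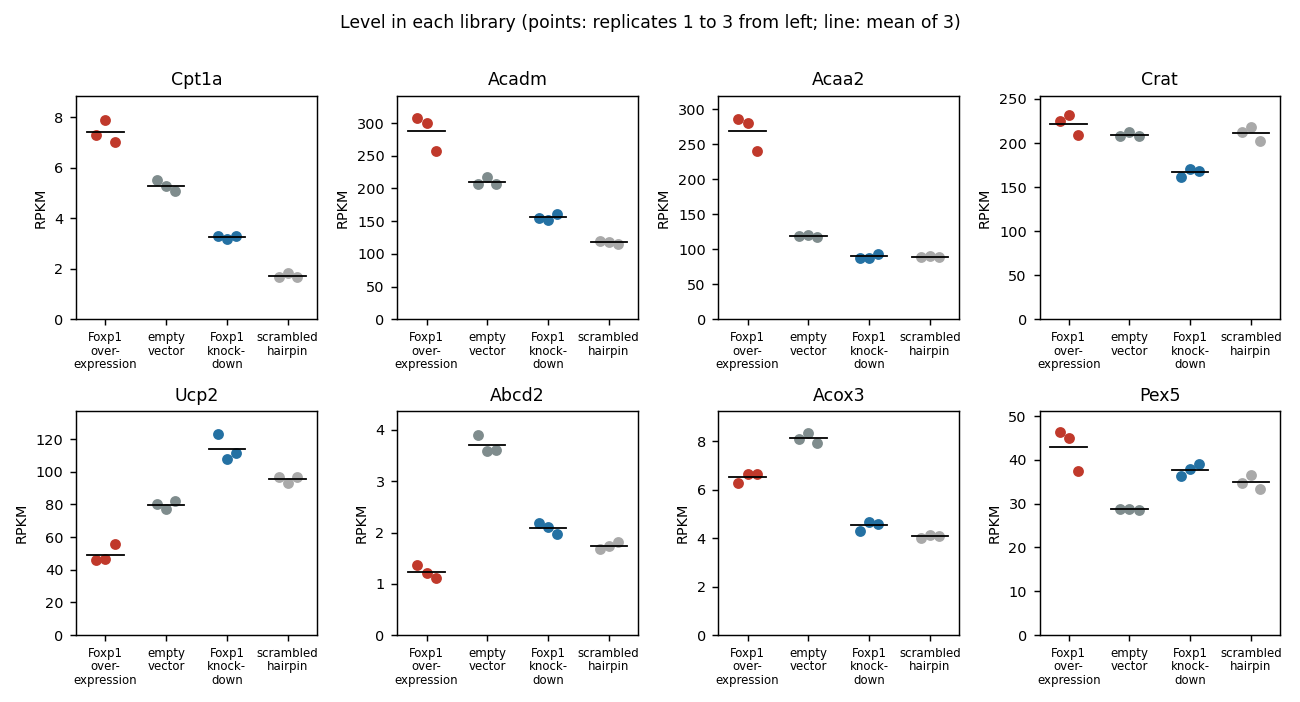
RPKM in each library for Cpt1a, Acadm, Acaa2, Crat, Ucp2, Abcd2, Acox3 and Pex5, from left to right in overexpression, empty vector, knockdown and scrambled hairpin cells; points are replicates 1 to 3 and lines are group means. Acaa2 stands at 241 RPKM or more in overexpressing cells and at 120 RPKM or less elsewhere, and Cpt1a is lowest in scrambled hairpin cells.

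Electrons from the acyl-CoA dehydrogenases pass through electron transfer flavoprotein, whose 2 subunits went apart with overexpression. Etfa, the α subunit, had 271, 239.7 and 212 RPKM in the overexpression libraries, against 171, 180.1 and 166 RPKM in the empty vector libraries. Every overexpression library was higher, with a wide spread among them (log2 fold change 0.48 ± 0.07, limma adjusted p = 0.000117). Etfb, the β subunit, had 37.6, 32.3 and 28.8 RPKM in the overexpression libraries, against 39.7, 40.7 and 40.8 RPKM in the empty vector libraries, all of them lower with overexpression (log2 fold change -0.30 ± 0.081, limma adjusted p = 0.00843). Etfb exons overlap those of Gm45233 and Mir7051 over 58.2% of their length, so its level is uncertain. In the other experiment, Etfa had 178, 169 and 176 RPKM in the knockdown libraries, against 185, 176 and 181 RPKM in the scrambled hairpin libraries. Etfb had 42.1, 36.9 and 39.7 RPKM in the knockdown libraries, against 37.6, 34.1 and 37.9 RPKM in the scrambled hairpin libraries. Those groups overlapped for both genes and neither passed the test (adjusted p = 0.604 for Etfa and 0.271 for Etfb).

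Etfdh, the membrane enzyme that hands these electrons to ubiquinone, had 33.4, 33.7 and 33.3 RPKM in the overexpression libraries, against 27.4, 28.2 and 26.6 RPKM in the empty vector libraries. It had 24.3, 23.98 and 24.9 RPKM in the knockdown libraries, against 21.3, 20.8 and 20.1 RPKM in the scrambled hairpin libraries. It was higher without overlap in both experiments, by like amounts (log2 fold change 0.28 ± 0.034, limma adjusted p = 2.16e-05, and log2 fold change 0.23 ± 0.034, limma adjusted p = 0.000176 in knockdown). Its responses differed by 0.054 ± 0.048 (adjusted p = 0.355).

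Ucp2 (ENSMUSG00000033685, chr7:100493337-100502020, + strand), an inner-membrane carrier that moves small dicarboxylic metabolites and was first named for uncoupling, fell in overexpression, where most mitochondrial members called had risen, and rose in knockdown. It had 45.9, 46.3 and 55.6 RPKM in the overexpression libraries, against 80.4, 77.3 and 81.8 RPKM in the empty vector libraries. All overexpression libraries were lower, with replicate 3 nearest to the controls (log2 fold change -0.69 ± 0.068, limma adjusted p = 3.54e-06). It had 123, 108 and 111.5 RPKM in the knockdown libraries, against 96.6, 93.4 and 96.7 RPKM in the scrambled hairpin libraries. All knockdown libraries were higher (log2 fold change 0.25 ± 0.068, limma adjusted p = 0.00888). The difference of -0.94 ± 0.097 between its responses passed the test (limma adjusted p = 5.05e-06).

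In peroxisomes, the 2 fatty acid importers parted in overexpressing cells. Abcd2 (ENSMUSG00000055782, chr15:91145871-91191799, - strand), a transporter of very long-chain acyl-CoA, had 1.36, 1.22 and 1.12 RPKM in the overexpression libraries, against 3.901, 3.595 and 3.62 RPKM in the empty vector libraries. The fall was the deepest of the tested members (log2 fold change -1.08 ± 0.05, limma adjusted p = 3.61e-09), a ratio of mean levels of 0.333. It had 2.18, 2.098 and 1.96 RPKM in the knockdown libraries, against 1.67, 1.74 and 1.81 RPKM in the scrambled hairpin libraries. The rise in knockdown was slight (log2 fold change 0.17 ± 0.05, limma adjusted p = 0.0143) and ended without scrambled hairpin replicate 1 (adjusted p = 0.0561) or knockdown replicate 1 (adjusted p = 0.0573). The difference between the responses was -1.25 ± 0.071 (limma adjusted p = 2.8e-08).

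Abcd3, the abundant peroxisomal membrane transporter known as PMP70, had 20.4, 20.1 and 19.8 RPKM in the overexpression libraries, against 17.5, 17.9 and 17.5 RPKM in the empty vector libraries. It was higher without overlap (log2 fold change 0.18 ± 0.032, limma adjusted p = 0.000536). It had 18.7, 19.01 and 17.97 RPKM in the knockdown libraries, against 18.8, 18.8 and 18.2 RPKM in the scrambled hairpin libraries, with overlapping groups (log2 fold change -0.002 ± 0.032, limma adjusted p = 0.958). Its responses differed by 0.18 ± 0.046 (limma adjusted p = 0.00483), a call that ended under median-ratio scaling (adjusted p = 0.104).

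Of the enzymes of peroxisomal oxidation, Acox3, an acyl-CoA oxidase for branched chains, had 6.28, 6.64 and 6.66 RPKM in the overexpression libraries, against 8.11, 8.34 and 7.94 RPKM in the empty vector libraries. The overexpression libraries were all lower (log2 fold change -0.28 ± 0.038, limma adjusted p = 6.41e-05). It had 4.31, 4.69 and 4.59 RPKM in the knockdown libraries, against 4.02, 4.14 and 4.08 RPKM in the scrambled hairpin libraries. The knockdown libraries were slightly higher (log2 fold change 0.12 ± 0.038, limma adjusted p = 0.0183), a rise that ended under TPM rescaling (adjusted p = 0.114) and without scrambled hairpin replicate 1 or knockdown replicate 2 or 3 (0.0562 to 0.0636). Hsd17b4, the D-bifunctional hydratase and dehydrogenase, had 54.1, 54.4 and 47.6 RPKM in the overexpression libraries, against 66.9, 69.5 and 66.8 RPKM in the empty vector libraries. It fell without overlap (log2 fold change -0.38 ± 0.048, limma adjusted p = 3.36e-05). It had 47.4, 49.1 and 47.01 RPKM in the knockdown libraries, against 46.03, 47.01 and 45.6 RPKM in the scrambled hairpin libraries (log2 fold change 0.049 ± 0.048, limma adjusted p = 0.421), which passed under median-ratio scaling (0.10, adjusted p = 0.0386).

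Scp2, whose longer product is a thiolase for branched chains, averaged 65.1 ± 8.43 RPKM in overexpressing cells and 87.2 ± 1.11 RPKM in empty vector cells (log2 fold change -0.42 ± 0.071, limma adjusted p = 0.000311). Acaa1a, the peroxisomal straight-chain thiolase, had 30.1, 29.97 and 32.9 RPKM in the knockdown libraries, against 36.5, 38.4 and 35.4 RPKM in the scrambled hairpin libraries. The knockdown libraries were lower (log2 fold change -0.24 ± 0.088, limma adjusted p = 0.0385), but the call ended under median-ratio scaling (adjusted p = 0.0542), without the minimum level (adjusted p = 0.0933) and on leaving out any scrambled hairpin library or knockdown replicate 1 or 2 (adjusted p = 0.0522 to 0.118). It had 35.2, 32.6 and 25.7 RPKM in the overexpression libraries, against 32.6, 34.3 and 34.97 RPKM in the empty vector libraries, with overlapping groups (log2 fold change -0.13 ± 0.088, limma adjusted p = 0.231). Acaa1a has a near-identical copy, Acaa1b, so reads may have been split between them.

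Ehhadh, the L-bifunctional enzyme and a classical PPARα target in mouse liver, had 0.182, 0.192 and 0.164 RPKM in the overexpression libraries, against 0.937, 1.21 and 0.999 RPKM in the empty vector libraries. It had 0.143, 0.204 and 0.232 RPKM in the knockdown libraries, against 0.158, 0.123 and 0.062 RPKM in the scrambled hairpin libraries. Empty vector cells were the group that stood out. Over 3 libraries these values rest on 59 reads with overexpression and 350 with the empty vector, and on 65 with knockdown and 39 with the scrambled hairpin. Only 1 library reached 1 RPKM, so it was not tested in the main comparison. Without that minimum, the log2 fold change of RPKM + 1 was -0.80 ± 0.051 in overexpression (limma adjusted p = 1.17e-06) and 0.099 ± 0.051 in knockdown (adjusted p = 0.209).

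Peroxins build the organelle and import its enzymes. Pex3, Pex16 and Pex19 together insert peroxisomal membrane proteins, and all 3 fell with overexpression. Pex3, the membrane anchor, had 9.57, 9.01 and 8.896 RPKM in the overexpression libraries, against 14.5, 14.1 and 13.4 RPKM in the empty vector libraries. The groups were well apart (log2 fold change -0.56 ± 0.04, limma adjusted p = 1.51e-07). It had 12.8, 12.8 and 12.3 RPKM in the knockdown libraries, against 14.5, 14.1 and 14.8 RPKM in the scrambled hairpin libraries. This fall was smaller (log2 fold change -0.18 ± 0.04, limma adjusted p = 0.00227), and the difference between the responses passed the test (-0.38 ± 0.056, limma adjusted p = 0.00011). In the main comparison no other member passed as lower in both experiments, though Pex6 did under some alternatives given below.

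Pex16, which receives Pex3 in the membrane, had 52.05, 51.2 and 46.8 RPKM in the overexpression libraries, against 67.95, 66.5 and 64.1 RPKM in the empty vector libraries. It fell without overlap (log2 fold change -0.40 ± 0.049, limma adjusted p = 2.46e-05). It had 98.3, 91.4 and 97.1 RPKM in the knockdown libraries, against 84.8, 91.6 and 85.8 RPKM in the scrambled hairpin libraries. Knockdown replicate 2 lay below scrambled hairpin replicate 2, and the rise barely passed (log2 fold change 0.13 ± 0.049, limma adjusted p = 0.0465) and ended under TPM rescaling (adjusted p = 0.214), without the minimum level (0.0788) and without scrambled hairpin or knockdown replicate 1 or 3 (0.121 to 0.152). Pex19 averaged 65.4 ± 2.03 RPKM in overexpressing cells and 73.1 ± 1.19 RPKM in empty vector cells (log2 fold change -0.16 ± 0.034, limma adjusted p = 0.00197).

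The receptor Pex5, which brings most matrix enzymes to the organelle, rose while the membrane factors fell. It had 46.4, 44.97 and 37.5 RPKM in the overexpression libraries, against 28.7, 28.8 and 28.6 RPKM in the empty vector libraries. Replicate 3 was the lowest overexpression library and above all controls (log2 fold change 0.56 ± 0.066, limma adjusted p = 1.78e-05). It had 36.4, 37.97 and 38.95 RPKM in the knockdown libraries, against 34.6, 36.7 and 33.2 RPKM in the scrambled hairpin libraries (log2 fold change 0.11 ± 0.066, limma adjusted p = 0.175), which passed under median-ratio scaling (0.17, adjusted p = 0.0212). The difference between its responses was 0.45 ± 0.094 (limma adjusted p = 0.00154).

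Pex6, an ATPase that helps recycle the receptor, had 21.6, 23.04 and 24.7 RPKM in the knockdown libraries, against 29.6, 31.4 and 28.1 RPKM in the scrambled hairpin libraries. All knockdown libraries were lower (log2 fold change -0.35 ± 0.08, limma adjusted p = 0.0034). It had 30.9, 29.9 and 24.4 RPKM in the overexpression libraries, against 30.7, 33.9 and 33.7 RPKM in the empty vector libraries (log2 fold change -0.20 ± 0.08, limma adjusted p = 0.0503), and under median-ratio scaling the overexpression value was -0.24 (adjusted p = 0.0101). Pex6 also passed as lower there under TPM rescaling (adjusted p = 0.044), quantile normalization (0.0224) and voom (0.0287). The same held without empty vector replicate 1 or overexpression replicate 1 or 2 (0.0218 to 0.0446). Without overexpression replicate 3 its log2 fold change was -0.10 (adjusted p = 0.176). Pex13, part of the docking complex, had 42.1, 41.4 and 40.9 RPKM in the knockdown libraries, against 38.95, 37.3 and 39.7 RPKM in the scrambled hairpin libraries. This rise was small (log2 fold change 0.10 ± 0.036, limma adjusted p = 0.0367) and ended under TPM rescaling (adjusted p = 0.134) and without scrambled hairpin replicate 1 or 2 or any knockdown library (0.0528 to 0.148). It had 40.5, 38.2 and 40.8 RPKM in the overexpression libraries, against 41.5, 41.01 and 40.7 RPKM in the empty vector libraries (log2 fold change -0.044 ± 0.036, limma adjusted p = 0.332), which passed as lower under TPM rescaling (-0.097, adjusted p = 0.0388).

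Pex11a, which takes part in peroxisome division, averaged 30.0 ± 1.77 RPKM in overexpressing cells and 32.7 ± 0.851 RPKM in empty vector cells (log2 fold change -0.12 ± 0.043, limma adjusted p = 0.0319), and the call ended without overexpression replicate 3 or empty vector replicate 2 or 3 (adjusted p = 0.0831 to 0.108). The ubiquitin ligase subunits Pex2 and Pex10, the receptor Pex7 and the docking protein Pex14 passed in neither experiment, with log2 fold changes between -0.059 and 0.16 in overexpression and between -0.14 and 0.094 in knockdown. In overexpression Pex2 and Pex10 passed without replicate 3 (adjusted p = 0.034 for Pex2 and 0.0154 for Pex10), Pex10 also with the replicate block (0.0404), and Pex7 without replicate 1 (log2 fold change -0.13, adjusted p = 0.0342). In knockdown Pex2 passed as lower without knockdown replicate 1 (log2 fold change -0.20, adjusted p = 0.0479). The difference between the Pex2 responses passed the test (0.30 ± 0.1, limma adjusted p = 0.0223). That call ended under median-ratio scaling (0.0716), after quantile normalization (0.0588) and without the minimum level (0.0503), and on leaving out some single libraries. Exons of Pex14 overlap those of Gm17029 over 28.3% of their length.

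The control groups themselves differed, and most mitochondrial genes of the list were lower in scrambled hairpin cells. In scrambled hairpin cells relative to empty vector cells, 6 members were higher (16.2%) and 17 lower (45.9%), where 44.8% of all genes tested were higher and 27.0% lower. The median log2 fold change of the list was -0.14, against 0.089 over all genes. With median-ratio size factors 4 members were higher and 24 lower, where 35.0% of all genes tested were higher and 35.5% lower. The higher genes then made up 49.7% of all genes called (51.0% after quantile normalization), against 62.4% with the deposited scaling. Among the 19 mitochondrial genes other than Ucp2, 1 was higher (Eci2, 5.26%) and 13 were lower (68.4%). Cpt1a had the largest difference, at 1.73 ± 0.084 RPKM in scrambled hairpin cells and 5.28 ± 0.214 RPKM in empty vector cells (log2 fold change -1.20 ± 0.046, limma adjusted p = 3.77e-10). All 4 acyl-CoA dehydrogenases were lower in scrambled hairpin cells, by -0.62 to -0.83 on the log2 scale, as were Eci1 (log2 fold change -0.74 ± 0.055, limma adjusted p = 1.18e-07), Acox3 (log2 fold change -0.85 ± 0.038, limma adjusted p = 1.56e-09) and Abcd2 (log2 fold change -0.78 ± 0.05, limma adjusted p = 3.43e-08). Hsd17b4 was also lower (log2 fold change -0.54 ± 0.048, limma adjusted p = 5.84e-07). Of the peroxins, Pex5, Pex14, Pex16 and Pex19 were higher and Pex7 was lower. The Pex19 call ended with median-ratio size factors (log2 fold change 0.049, adjusted p = 0.295). Of 14 mitochondrial acyl-CoA enzymes outside the list, 0 were higher and 13 lower (92.9%) in scrambled hairpin cells.

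Mitochondrially encoded genes took 5.37 ± 0.49% of reads in scrambled hairpin cells and 9.04 ± 0.38% in empty vector cells, and 11 of 13 mitochondrially encoded mRNAs were lower. In the experiments, that share was 10.9 ± 1.91% in overexpressing cells and 9.04 ± 0.38% in empty vector cells, and 6.34 ± 0.43% in knockdown cells and 5.37 ± 0.49% in scrambled hairpin cells (SD, n = 3 each). Of 11 tested fat cell markers, 1 was higher and 7 were lower in scrambled hairpin cells than in empty vector cells. Of 6 tested preadipocyte markers, 5 were higher and 1 was lower. Of all genes tested, 44.8% were higher and 27.0% lower in that comparison. The part of the mitochondrial read shares and of these markers in the members' differences was not tested. Vector type and any other difference between the 2 experiments, such as culture or sequencing batch, cannot be told apart.

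**Figure D4:**
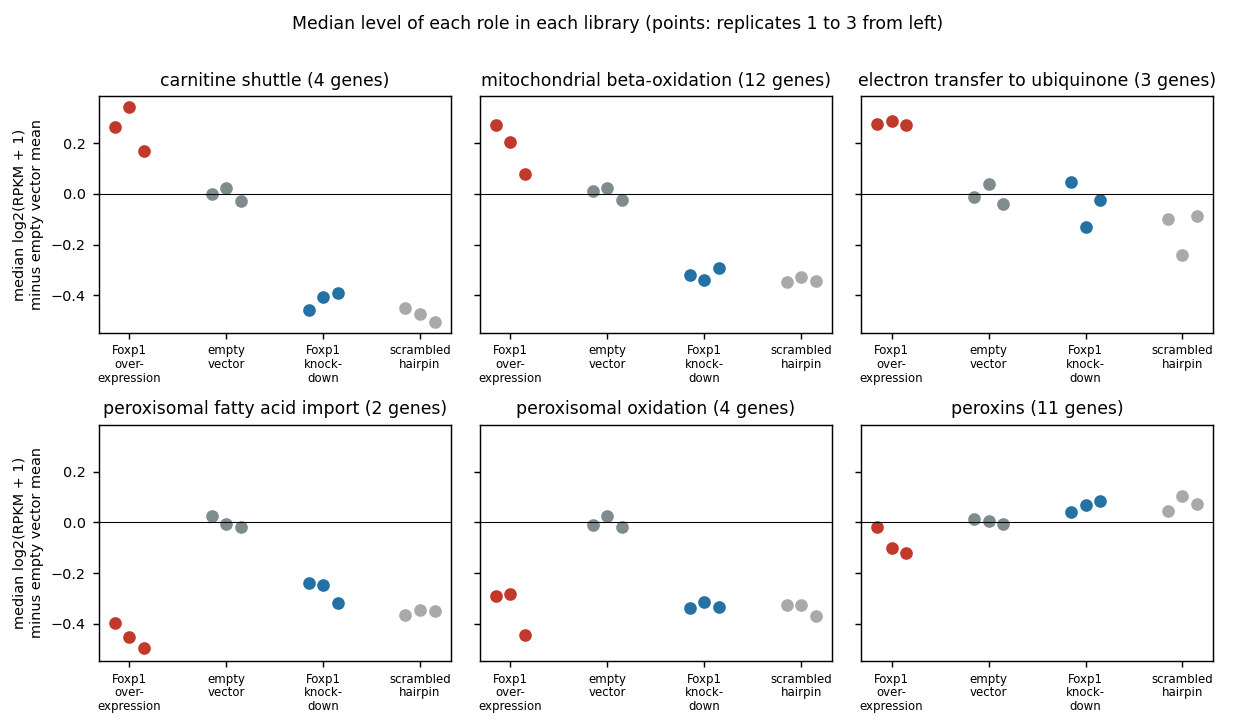
Median over the genes of a role of log2(RPKM + 1) in each library, relative to the mean of the empty vector libraries, for the 6 roles with more than 1 tested gene; points are replicates 1 to 3 in overexpression, empty vector, knockdown and scrambled hairpin cells. For β-oxidation the overexpression libraries lie at 0.08 to 0.27, the knockdown libraries at -0.34 to -0.29 and the scrambled hairpin libraries at -0.35 to -0.33; for peroxisomal oxidation all groups but the empty vector lie at or below -0.28.

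By library, the median of the 12 β-oxidation genes was 0.27, 0.21 and 0.080 above the empty vector mean in overexpression replicates 1, 2 and 3. Replicate 3 was thus nearest to the controls for this role. For the 4 enzymes of peroxisomal oxidation the same libraries lay at -0.29, -0.28 and -0.45, with replicate 3 farthest from the controls. Summed RPKM over the β-oxidation genes was 1556, 1513 and 1318 in overexpressing cells and 1167, 1187 and 1143 in empty vector cells, and 890.2, 887 and 924 in knockdown cells and 834, 842 and 818 in scrambled hairpin cells.

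Of 64 other genes of these pathways, listed by function, 57 were tested. Of them 12 rose (21.1%) and 26 fell (45.6%) in overexpression, with a median log2 fold change of -0.13, and 16 rose (28.1%) and 20 fell (35.1%) in knockdown. Over all genes the shares were 31.0% higher and 20.3% lower in overexpression, and 18.7% higher and 31.0% lower in knockdown. The neighbouring mitochondrial acyl-CoA enzymes, mostly of amino acid metabolism, had 1 rise (7.14%) and 10 falls (71.4%) among 14 in overexpression. Among 14 other peroxisomal enzymes 2 rose (14.3%) and 7 fell in overexpression. Cat, the catalase that breaks down hydrogen peroxide, fell in overexpression (log2 fold change -1.15, limma adjusted p = 1.84e-10) and rose in knockdown (0.58, adjusted p = 3.37e-07). Acox2, the oxidase for bile acid precursors, averaged 2.94 ± 0.206 RPKM in overexpressing cells and 9.89 ± 0.615 RPKM in empty vector cells (log2 fold change -1.47, limma adjusted p = 9.95e-10), and Gnpat, which starts ether lipid synthesis, fell by 0.57 on the log2 scale.

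Of the acyl-CoA synthetases and thioesterases listed, 9 were tested. In overexpression 5 rose (55.6%) and 3 fell (33.3%), and in knockdown 6 rose (66.7%) and 1 fell (11.1%). These are to be read against the same shares over all genes. Acsl5, which activates long-chain fatty acids, rose in both, by 0.66 and 0.54 on the log2 scale. Acsl4, a synthetase that prefers arachidonate, fell in overexpression (-0.82) and rose in knockdown (0.17). The carboxylases that make malonyl-CoA, the inhibitor of Cpt1a, moved in opposite directions. Acacb, the form at the mitochondrial surface, averaged 9.02 ± 1.28 RPKM in overexpressing cells and 3.62 ± 0.27 RPKM in empty vector cells, and 2.38 ± 0.25 RPKM in knockdown cells and 3.47 ± 0.353 RPKM in scrambled hairpin cells. It rose in overexpression (1.11, limma adjusted p = 6.29e-07) and fell in knockdown (-0.40, adjusted p = 0.00308), while the cytosolic Acaca fell in overexpression (-0.31) and rose in knockdown (0.18).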

How the data were processed

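The authors deposited a matrix of RPKM per gene and library. Its numbers were RPKM divided by 1000, as the value of 1 read showed, and were multiplied by 1000 here. Per the submitters' processing notes, HISAT2 2.1.0 and featureCounts of Subread 1.5.3 were used on mm10. Their roles and settings, the strand setting and the handling of multi-mapping reads are not given in the sources used here. Identifiers are of Ensembl release 98, and GENCODE M21 (GRCm38) named 28896 of 28948. Value times exon length was a whole number of reads, within 0.05, for 98.8% to 98.9% of values per library, which gave the depth.

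The 11245 genes that reached 1 RPKM in 3 or more libraries were tested as log2(RPKM + 1), which understates the change of low genes, with limma 3.58.1 in R 4.3.3 (lmFit, eBayes with trend). One model held all 12 libraries in 4 groups, with Benjamini-Hochberg adjustment over all genes and a threshold of 0.05. Fold changes are given ± SE and levels ± SD over 3 libraries. The fit was tested on simulated data. The alternatives were a pseudocount of 0.1, no filter on low values, 3 scalings, only the libraries compared, a replicate block, voom on the recovered reads and leaving out each library.

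The members and lists were chosen with earlier results of these data known. Per-library values are given for the 3 members of each role (2 in roles with fewer than 6 members) with the smallest adjusted p in overexpression, knockdown and the difference of responses, and for Ehhadh, which was chosen after its values were seen. Related genes are up to 3 per list by the smallest adjusted p. Figures were drawn with matplotlib 3.10.9, and tables were made with numpy 2.4.6 and pandas 2.3.3 in Python 3.11.15. A related gene that the naming rule would name is not reported here by itself.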

Additional observations from a re-analysis of the deposited data

How the results depend on the processing

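No member changed direction between called values under any alternative. Of the members called, 21 of 24 in overexpression, 11 of 17 in knockdown, 20 of 23 in the difference of responses and 20 of 23 between the controls were called under every alternative that kept all libraries of the comparison, and 21, 10, 20 and 23 without any one library. The 12 rises in knockdown became 7 after TPM rescaling. Leaving out 1 library at a time gave 12 to 19 rises and 9 to 15 falls among the members in overexpression, 7 to 10 and 4 to 5 in knockdown, 10 to 16 and 10 to 12 in the difference, and 6 and 17 to 18 between the controls. Over all genes it gave 4965 to 6221, 4758 to 5350, 5696 to 6678 and 7542 to 7632 calls in these comparisons. The cause was not tested. The labels do not say whether the replicate numbers pair the libraries. Same-numbered libraries had correlations of deviations from group means between -0.073 and 0.118, which cannot settle this with 3 libraries per group. With the replicate block, 5888 genes were called in overexpression (5775 without) and 5709 in knockdown (5587 without), and the calls of Decr1 in overexpression (adjusted p = 0.0562), Acaa1a in knockdown (0.0527) and Pex19 in the difference (0.0553) ended, while Pex10 in overexpression (0.0404) and Abcd3 and Pex13 between the controls (0.0473 and 0.0447) passed. Restricting the fit to the libraries compared is not defined for the difference of responses, which uses all 4 groups.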

Other observations

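Genes that control transcription of the oxidation pathways were measured in the same libraries, and of 10 such genes 8 were tested. In overexpression 2 rose (25.0%) and 4 fell, where 31.0% of all genes rose and 20.3% fell. In knockdown 1 rose (12.5%) and 4 fell, where 18.7% of all genes rose and 31.0% fell. Ppargc1b, a coactivator of mitochondrial genes, averaged 4.39 ± 0.267 RPKM in overexpressing cells and 3.12 ± 0.07 RPKM in empty vector cells (log2 fold change 0.39, limma adjusted p = 6.52e-05). It averaged 3.84 ± 0.351 RPKM in knockdown cells and 5.61 ± 0.118 RPKM in scrambled hairpin cells (log2 fold change -0.45, adjusted p = 2.85e-05), so it moved with Foxp1 in both experiments, and the difference of responses passed the test (adjusted p = 1.58e-06). Pparg, the master regulator of fat cells, averaged 98.8 ± 3.44 RPKM in overexpressing cells and 122 ± 0.943 RPKM in empty vector cells, and 82.1 ± 2.68 RPKM in knockdown cells and 88.7 ± 2.51 RPKM in scrambled hairpin cells. It fell in both (adjusted p = 2.69e-05 and 0.0302). Its partner Rxra also fell in both, by 0.40 and 0.33 on the log2 scale.

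Coq10a, a ubiquinone-binding protein of mitochondria, averaged 14.1 ± 0.729 RPKM in overexpressing cells and 10.2 ± 0.247 RPKM in empty vector cells, and 6.80 ± 0.356 RPKM in knockdown cells and 9.13 ± 0.646 RPKM in scrambled hairpin cells. It rose in overexpression (limma adjusted p = 2.44e-05) and fell in knockdown (adjusted p = 0.000111). Among 5 other peroxins, 0 rose and 1 fell in overexpression, where 31.0% of all genes rose and 20.3% fell. In knockdown 1 of these peroxins rose and 2 fell, where 18.7% of all genes rose and 31.0% fell. With 5 genes, these counts cannot be told apart from the shares over all genes. Pex11g, a relative of Pex11a, averaged 8.22 ± 0.685 RPKM in overexpressing cells and 9.21 ± 0.104 RPKM in empty vector cells, and 12.2 ± 0.403 RPKM in knockdown cells and 15.5 ± 0.457 RPKM in scrambled hairpin cells, and fell in both (adjusted p = 0.0254 and 0.000199).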
